A study of Mus musculus with 7 samples.

Results

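The 93 genes examined here encode the proteins of the cytosolic ribosome in mouse, together with close copies of them. They were taken from the 55414 genes of the table by symbol and biotype in GENCODE M21: protein-coding genes whose symbol starts with Rpl or Rps and a digit, with Rplp0, Rplp1, Rplp2 and Rpsa, without the Rps6k kinases, plus Rps4l, which that annotation lists as a transcribed processed pseudogene. Of the 93, 77 encode a standard ribosomal subunit protein, 31 of the small and 46 of the large subunit. Another 7 are paralogs that encode a variant of a subunit protein (Rpl3l, Rpl7l1, Rpl10l, Rpl22l1, Rpl36al, Rpl39l and Rps27l), and 8 are copies that carry a pseudogene-like name or structure. The last, Rps19bp1, is caught by the symbol rule but encodes a binding partner of RPS19 and not a ribosomal protein. Fau and Rack1 also encode ribosomal proteins but have other symbols, so they are given apart.

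Poly(A) RNA of whole spleens from Fpr2KO mice (n = 4) was compared with that of WT mice, labelled C57BL/6N (n = 3), to ask what loss of the formyl peptide receptor Fpr2 changes in this organ. No treatment is named, and the strain background of the Fpr2KO mice, how the allele was made, and the age and sex of the mice are not given in any source used here. The labels number the replicates but do not call them separate animals, and p-values therefore cover the spread among these 7 libraries only. Fpr2 itself had 0 reads in each Fpr2KO library, against 32.2 ± 3.40 CPM in WT (SD, n = 3; CPM, reads of a gene relative to the TMM-scaled size of its library).

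A ribosome joins a small subunit, which reads the mRNA, to a large subunit, which forms the peptide bond and holds the exit tunnel of the new chain. Most subunit proteins are needed in about equal number, and the subunit genes are among the most highly expressed in dividing and secreting cells such as lymphocytes and plasma cells of the spleen. Their mRNAs carry a 5′ terminal oligopyrimidine tract, a run of C and T bases at the very start through which mTORC1 and LARP1 control translation. These tracts can be read in the 30 bases around the annotated start of 4 of the genes, shown as examples of such a tract (15 bases before the RefSeq start and 15 from it on, GRCm38.p6, capitals mark a match to CTTTCC, to the related string CTCTTT or to the third string searched, CTTTTC):
Rps6, chr4:86857353-86857382, minus strand: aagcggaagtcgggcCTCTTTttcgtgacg
Rps10, chr17:27635230-27635259, minus strand: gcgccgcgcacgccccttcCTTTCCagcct
Rpl35, chr2:39005117-39005146, minus strand: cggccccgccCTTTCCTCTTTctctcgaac
Rpl38, chr11:114668565-114668594, plus strand: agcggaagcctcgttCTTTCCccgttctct
Of the 77 subunit genes, 57 had a RefSeq start window. Within 30 bases either side of the start, on the sense strand, 22 of the 57 (38.6%) held at least 1 of those 3 strings, against 7.60% of all 27025 genes with a window. CCGGAAG, the core recognised by ETS factors, was found on either strand of the window of 250 bases before and 50 after the start in 24 of the 57 (42.1%), against 9.93% of all genes. AAGATGGC, the core of the YY1 motif, was found there in 5 (8.77%), against 3.19%, and TATAAA in the 50 bases before the start in 0, against 3.15%. These are matches of letters only.

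The libraries held between 16424799 and 18692809 counts in Fpr2KO and between 14968605 and 16600334 in WT. Over all genes tested, 51.4% had a fold change below 0. Neutrophil markers were lower in Fpr2KO for 9 of 9 genes, of which edgeR called 0 and DESeq2 called 5. DESeq2 called 0.324% of 15139 genes as lower. At an unadjusted edgeR p under 0.05 there were 6 of the 9, against 4.98% of all genes tested. The summed level of the 9 was 2640, 1317, 2018 and 1423 CPM in Fpr2KO, against 3318, 4452 and 3705 CPM in WT. Erythroid markers had a fold change below 0 for 8 of 8 genes, with a median of -0.64. Of these, 0 were called by edgeR or DESeq2 and 0 had an unadjusted edgeR p under 0.05. The sum over erythroid markers spread widely in both groups (10041 to 51439 CPM in Fpr2KO, 14953 to 91946 CPM in WT), and pancreas acinar markers stood at 832 and 472 CPM in Fpr2KO replicates 1 and 2, against 24 to 49 CPM in the other libraries. B cell markers, which define the largest lymphocyte class of the spleen, summed to between 2878 and 3284 CPM in Fpr2KO and between 3038 and 3152 CPM in WT. NK cell markers had a fold change above 0 for 4 of 5 genes, with a median of 0.20. Of the 5, 0 were called by edgeR or DESeq2 and 2 had an unadjusted edgeR p under 0.05. The groups did not overlap in 2 of them, both higher, against 2.73% of all genes tested. T cell markers were above 0 for 5 of 7 genes, with 0 called. Their sums ran from 495 to 732 CPM in Fpr2KO and from 559 to 717 CPM in WT. Plasma cell markers had a fold change below 0 for 7 of 7 genes, with 0 called by edgeR or DESeq2 and 1 at an unadjusted edgeR p under 0.05. They summed to 8305, 18644, 14445 and 10741 CPM in Fpr2KO, against 14565, 11998 and 34998 CPM in WT, with WT replicate 3 far above the rest. Proliferation markers were also below 0 for 7 of 7, with 0 called by either tool and 0 at an unadjusted edgeR p under 0.05, and summed to 1584, 550.4, 812 and 778 CPM in Fpr2KO, against 1052, 1419 and 704 CPM in WT. The groups overlapped in the plasma cell and proliferation sums. The part of any of these markers in the levels of the ribosomal protein genes was not tested. In whole tissue, fewer cells of a type and less RNA per cell cannot be told apart.

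No difference in the subunit genes between spleens with and without Fpr2 was detectable in these libraries. No member passed edgeR's quasi-likelihood test at an adjusted p under 0.05, 0 of 88 tested, where 0.0373% of all 16089 genes tested did. At an unadjusted p under 0.05 edgeR gave 2 of the 88 members (2.27%), both copies, against 4.98% of all genes, and 0 of the 77 subunit genes. DESeq2 called 1 member, the copy Rps4l, as lower; it called 0.377% of 15139 genes in either direction and 0.324% as lower. Groups did not overlap in 2 members (2.27%), against 5.91% of all genes, and these were the same 2 copies, Rps4l and Rpl36a-ps1.

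Together the 93 genes took 9.34, 9.83, 10.4 and 10.1% of all counts in the 4 Fpr2KO libraries, against 8.21, 9.62 and 9.82% in the 3 WT libraries. The means were 9.92 ± 0.445% in Fpr2KO (SD, n = 4) and 9.22 ± 0.878% in WT (SD, n = 3). WT replicate 1 alone was below all others, and the remaining 2 WT libraries lay within the Fpr2KO range. Counting without haemoglobin, immunoglobulin and mitochondrial genes in the denominator, the shares were 10.4, 10.7, 11.3 and 11.02% in Fpr2KO, against 9.10, 11.2 and 11.1% in WT.

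The 77 genes moved as a block from library to library. Relative to each gene's own mean over the 7 libraries, on the log2(CPM + 1) scale, the median over the 77 was -0.03, -0.05, 0.08 and 0.03 in Fpr2KO, against -0.23, 0.12 and 0.06 in WT. WT replicate 1 was the lowest library for 75 of the 77 genes, and WT replicate 2 the highest for 46. So on this TMM-scaled measure the 2 extremes of the block were both WT libraries, and the Fpr2KO libraries lay between them. The order depends on the scaling. In the unscaled share of counts given above, WT replicate 1 was again lowest, but Fpr2KO replicate 3 was highest (10.4%, against 9.62% in WT replicate 2). The balance between subunits varied little: the summed CPM of small subunit genes over that of large subunit genes was 0.776, 0.783, 0.780 and 0.777 in Fpr2KO, against 0.772, 0.789 and 0.785 in WT.

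**Figure D1:**
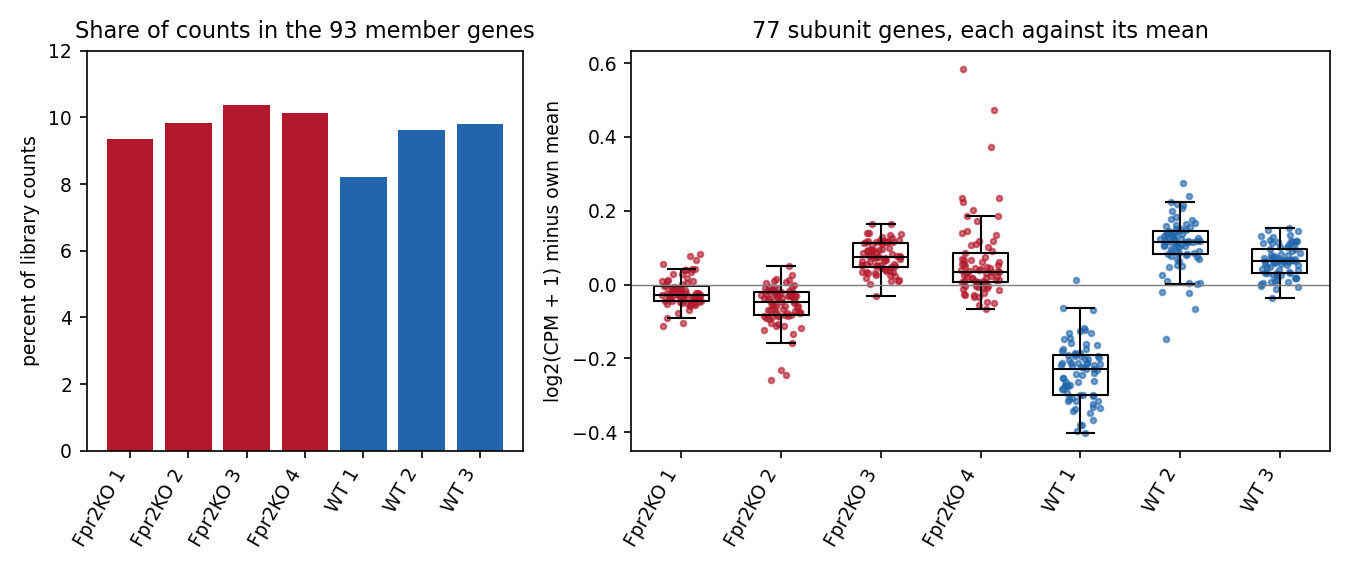
Left, percent of each library's counts that fell on the 93 genes, by library. Right, log2(CPM + 1) of each of the 77 subunit genes minus that gene's mean over the 7 libraries, 1 point per gene; boxes give the median and quartiles, and whiskers reach at most 1.5 times the interquartile range. WT replicate 1 sits lowest in both panels (8.21% of counts, median -0.23). Fpr2KO replicate 3 has the highest share (10.4%). WT replicate 2 has the highest median (0.12), with the medians of the 4 Fpr2KO libraries between those of WT replicates 1 and 2.

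Log2 fold changes, Fpr2KO minus WT throughout, ran from -0.11 (Rpl28) to 0.28 (Rps29) over the 77 subunit genes, with standard errors between 0.07 and 0.20. For 75 of the 77 the fold change and 2 standard errors either side lay within 0.5 of 0 on the log2 scale, the exceptions being Rps29 and Rpl38. The fold change was above 0 for 52 subunit genes and below 0 for 25, with a median of 0.03, and for all 88 tested members it was below 0 for 28 (31.8%), against 51.4% of all genes tested, whose median was 0.00. This excess of small positive values rested on WT replicate 1: without that library 71 members were below 0 and their median was -0.07, whereas without WT replicate 2 only 7 were below 0 and the median was 0.09.

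**Figure D2:**
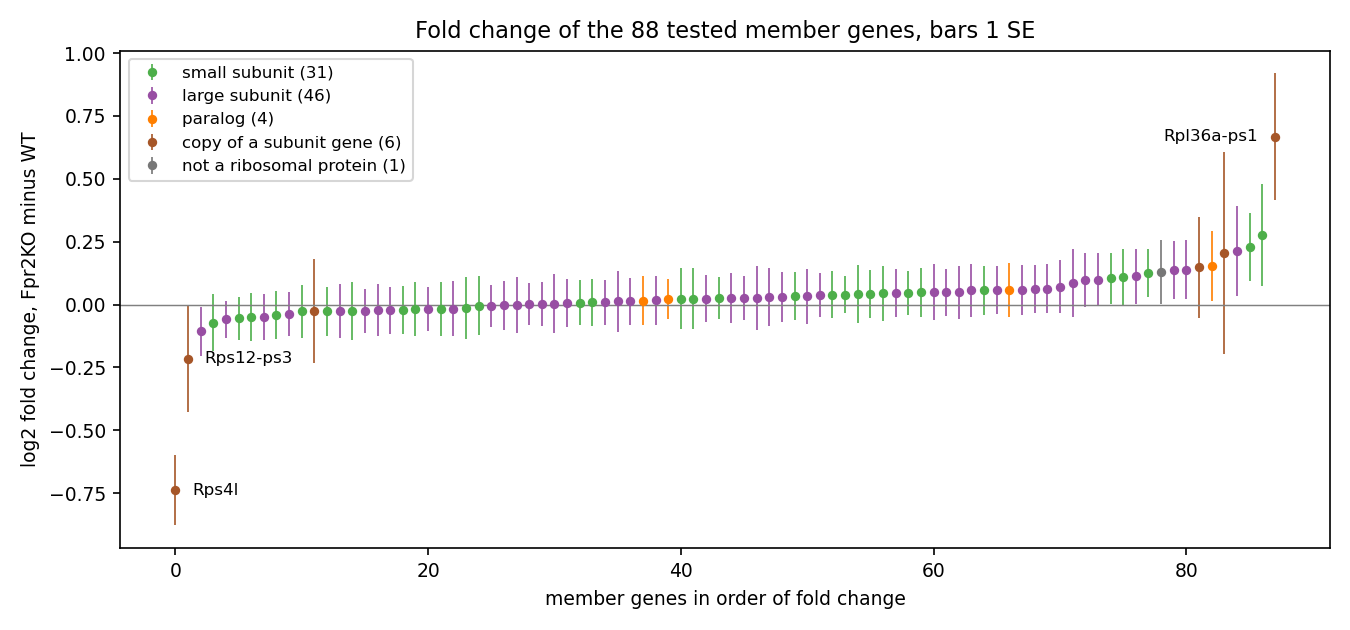
Log2 fold change (Fpr2KO minus WT, edgeR) of the 88 tested members in ascending order, coloured by class, with bars of 1 standard error. The subunit genes lie between -0.11 and 0.28, and the copies Rps4l (-0.74) and Rpl36a-ps1 (0.67) lie outside them at either end.

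Among the 31 small subunit genes 19 fold changes were above 0 and 12 below, with a median of 0.02. Rps28, a very short protein at the mRNA exit of the small subunit, had the smallest p of any subunit gene. It stood at 382, 367, 431 and 507 CPM in Fpr2KO, against 300.2, 391 and 388 CPM in WT. Fpr2KO replicate 4 was highest and WT replicate 1 lowest, with overlap between the groups in the rest, and the fold change of 0.23 (SE 0.13) had an unadjusted p of 0.120 and an edgeR adjusted p of 1.0. Rps29, a zinc-binding protein of the small subunit head and a gene mutated in Diamond-Blackfan anaemia, stood at 289, 251, 321 and 444 CPM in Fpr2KO, against 224, 267 and 317 CPM in WT (log2 fold change 0.28, SE 0.20). Rps21 stood at 732, 697, 805 and 839 CPM in Fpr2KO, against 637, 726 and 747 CPM in WT (0.13, SE 0.10). In both, Fpr2KO replicate 4 was again the highest library and WT replicate 1 the lowest.

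On the lower side, Rps2, which lines the mRNA entry channel, stood at 1452, 1262, 1398 and 1340.4 CPM in Fpr2KO, against 1197, 1678 and 1424 CPM in WT (log2 fold change -0.07, SE 0.11). Rps13 stood at 595, 604, 633 and 592 CPM in Fpr2KO, against 564, 681 and 643 CPM in WT (-0.05, SE 0.09). Both had their highest library and their lowest library in WT. Rps14, a protein of the platform of the small subunit, stood at 1593, 1663, 1732 and 1685 CPM in Fpr2KO, against 1359, 1940.5 and 1794 CPM in WT (-0.03, SE 0.12). Rps24, which has the most reads per kilobase of all members, stood at 1862, 1966, 1956 and 1883 CPM in Fpr2KO, against 1684, 1971 and 1996 CPM in WT (0.03, SE 0.08). WT replicate 1 was the lowest library for Rps14 and Rps24 too.

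Among the 46 large subunit genes 33 fold changes were above 0 and 13 below, with a median of 0.03. Rpl28 had the lowest fold change of any subunit gene: it stood at 718, 590.3, 686 and 728 CPM in Fpr2KO, against 669.7, 766 and 762 CPM in WT (-0.11, SE 0.10, unadjusted p = 0.301). Here Fpr2KO replicate 2, and not WT replicate 1, was the lowest library. Rpl14 stood at 886, 864, 938 and 876 CPM in Fpr2KO, against 914, 959 and 911 CPM in WT (-0.06, SE 0.07), and it was the only subunit gene whose level in WT replicate 1 was above its own mean. Rpl37a, a zinc-binding protein, stood at 808, 763, 902 and 966 CPM in Fpr2KO, against 659, 823 and 859 CPM in WT (0.14, SE 0.12). Rpl35a, another Diamond-Blackfan anaemia gene, stood at 615, 577, 671 and 687 CPM in Fpr2KO, against 479, 620.1 and 643 CPM in WT (0.14, SE 0.12). Both were highest in Fpr2KO replicate 4 and lowest in WT replicate 1, and neither passed the test.

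The acidic stalk, which recruits and activates the elongation factors, is made of RPLP0 and several RPLP1 and RPLP2 chains. Rplp0 stood at 2816, 2747, 3105 and 2869 CPM in Fpr2KO, against 2553, 3171 and 2788 CPM in WT. Rplp1 stood at 2013, 1862, 1978 and 2031 CPM in Fpr2KO, against 1676, 2148 and 2020.1 CPM in WT. Rplp2 stood at 533, 513, 523 and 542 CPM in Fpr2KO, against 413, 611 and 548 CPM in WT. All 3 had fold changes between 0.01 and 0.02 and groups that overlapped, with WT replicate 1 lowest and WT replicate 2 highest. RPL5 and RPL11 bind the small rRNA of the large subunit and, when free, hold the p53 ligase MDM2. Rpl5 stood at 1526, 1572, 1635 and 1587 CPM in Fpr2KO, against 1363, 1638 and 1619 CPM in WT (0.04, SE 0.09). Rpl11 stood at 1126, 1072, 1193 and 1166 CPM in Fpr2KO, against 898, 1211 and 1196 CPM in WT (0.05, SE 0.11). Both overlapped between the groups and were lowest in WT replicate 1 and highest in WT replicate 2.

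No gene of the other role groups passed either. Of 9 genes for proteins at the rim of the exit tunnel, 6 had a fold change above 0 and 3 below, with a median of 0.03, and none passed. Rpl23a, the tunnel-rim protein with the most reads per kilobase, stood at 1628, 1628, 1748 and 1688 CPM in Fpr2KO, against 1432, 1818 and 1752 CPM in WT (0.00, SE 0.10). Of the 12 genes listed for Diamond-Blackfan anaemia, an inherited failure of red cell production, 9 were above 0 and 3 below, with a median of 0.03 and none passing. The erythroid markers spread far more than this between libraries, as given above, and their part in the values was not tested.

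Within the block, short genes varied differently from long ones. Over the 77 genes, Spearman's rho between coding length and the library's deviation was -0.21, 0.38, -0.15 and -0.74 in the Fpr2KO libraries, against 0.56, 0.39 and -0.21 in the WT libraries. These correlations are across genes, which share a library and are not independent, and they are given as a description. In Fpr2KO replicate 4 the shorter genes were high, and in WT replicate 1 they were lowest of all. The 9 subunit genes with a coding length of at most 300 bases are Rpl37, Rpl37a, Rpl38, Rpl39, Rpl41, Rps21, Rps27, Rps28 and Rps29, a limit chosen after the values were seen.

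Their median deviation was -0.01, -0.10, 0.12 and 0.23 in Fpr2KO, against -0.32, 0.00 and 0.07 in WT. The 68 longer genes had -0.03, -0.04, 0.07 and 0.03 in Fpr2KO, against -0.22, 0.12 and 0.06 in WT. Fpr2KO replicate 4 was the highest library for all 9 short genes and for 5 of the 68 others. All 9 short genes had a fold change above 0, with a median of 0.13, against 0.02 for the 68. Without Fpr2KO replicate 4 the medians were 0.07 for the short genes and 0.01 for the others, and without WT replicate 1 they were 0.03 and -0.08. Rpl38, which is needed in mouse for normal translation of Hox mRNAs, shows the pattern: it stood at 242, 196, 251 and 326 CPM in Fpr2KO, against 177, 224 and 255 CPM in WT (log2 fold change 0.21, SE 0.18). It was highest in Fpr2KO replicate 4 and lowest in WT replicate 1, and the 2 groups otherwise overlapped.

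**Figure D3:**
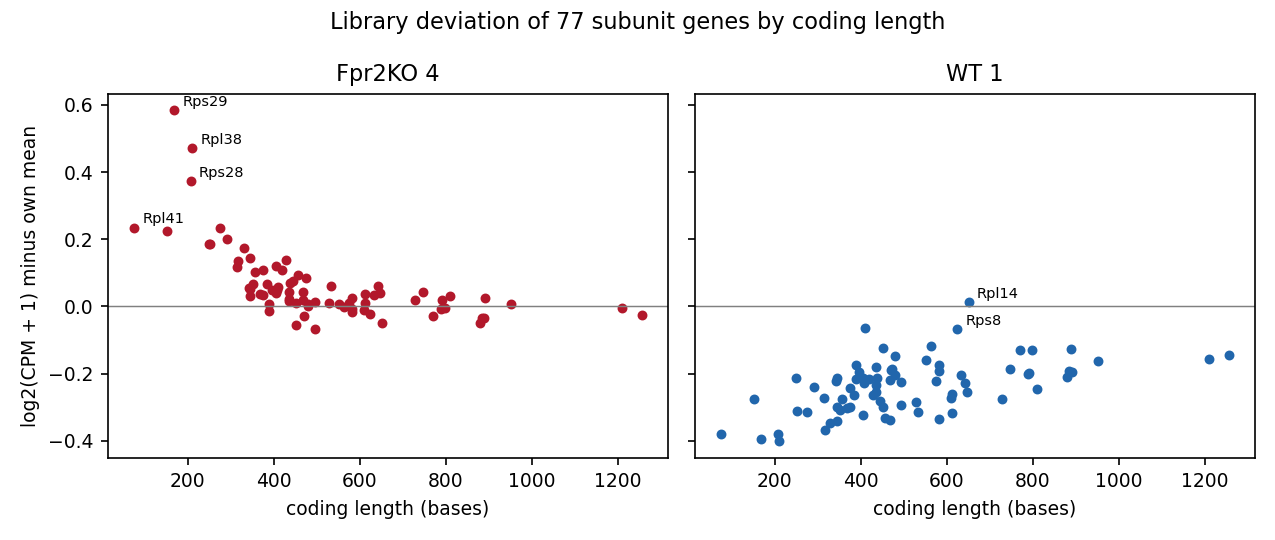
Deviation of each of the 77 subunit genes from its own mean, log2(CPM + 1), against coding length in bases, in the library labelled Fpr2KO replicate 4 (left) and in WT replicate 1 (right). The shortest genes lie highest in Fpr2KO replicate 4 (Spearman's rho -0.74 over the 77 genes) and lowest in WT replicate 1 (rho 0.56).

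Levels per length of annotated mRNA, averaged over the 7 libraries, ran from 287 to 4066 CPM per kilobase over the 77 subunit genes, with a median of 1520. The median was 1739 for small and 1381 for large subunit genes. Rps24 (4066), Rplp1 (3930), Rps27 (3848), Rpl23a (2983) and Rps14 (2816) were highest. Rps20 was the lowest subunit gene at 287, where its annotated mRNA of 3706 bases is far longer than its coding length of 357 bases. These levels depend on how the reads of copies were treated: 75 of the 77 mRNAs share at least 1 stretch of 75 bases with another annotated transcript, and 38 share over 50% of their stretches. No source used here gives the read length or how reads with several matches were handled.

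Rps4l, a processed copy of the X-linked small subunit gene Rps4x, was the member that differed most. It had 162, 150, 146 and 201 reads in Fpr2KO, against 258, 216 and 236 in WT, or 9.54, 8.05, 8.65 and 10.5 CPM in Fpr2KO, against 17.3, 14.2 and 14.5 CPM in WT. Every Fpr2KO library lay below every WT library, a gap between 10.5 and 14.2 CPM, and 3.18% of all genes tested were lower without overlap. The means were 9.18 ± 1.06 CPM in Fpr2KO (SD, n = 4) and 15.3 ± 1.72 CPM in WT (SD, n = 3), a log2 fold change of -0.74 (SE 0.14). Its unadjusted p was 0.000369, and the adjusted p was 0.262 in edgeR and 0.00643 in DESeq2, so the call depends on the tool. Over the alternatives the fold change stayed between -0.64 and -0.81, and the adjusted p lay between 0.00643 and 1.0; DESeq2 was the only setting to call it.

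Rps4l lies on chromosome 6 (chr6:148354656-148355598, plus strand, GRCm38), inside the gene Tmtc1 on the opposite strand. No source used here gives the strand setting of the counting, so reads of Rps4l and of Tmtc1 pre-mRNA cannot be told apart. Tmtc1 stood at 10.01, 15.7, 12.9 and 9.75 CPM in Fpr2KO, against 10.9, 8.06 and 10.5 CPM in WT (log2 fold change 0.30, SE 0.20, edgeR adjusted p = 1.0). The mean of Tmtc1 was higher in Fpr2KO, with overlap, where that of Rps4l was lower. The Tmtc1 count is for the gene as a whole and does not measure its pre-mRNA at the Rps4l site. Rps4x itself stood at 2397, 2475, 2646 and 2475 CPM in Fpr2KO, against 2163, 2743 and 2546 CPM in WT (0.01, SE 0.10), with groups that overlapped. Per kilobase, Rps4l reached 0.411, 0.336, 0.338 and 0.438% of the Rps4x level in Fpr2KO, against 0.827, 0.533 and 0.590% in WT. Summed over the 9 neutrophil markers given above, the level was also lower in every Fpr2KO library than in every WT library. Of the 9 genes, 5 were lower without overlap, against 3.18% of all genes tested. The part of these markers in the level of Rps4l was not tested.

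The 2 genes share no stretch of 75 bases within their frames. The longest open reading frame of the Rps4l transcript is 789 bases, against 792 in Rps4x, both counted with the stop codon, and 632 of 792 aligned columns (79.8%) are identical, 157 differ and 3 are gaps. Of the 715 stretches of that length in the Rps4l frame, 0 occur in the Rps4x coding sequence. Over the whole Rps4l transcript, 6.67% of the stretches of 75 bases occur in transcripts of other genes, all of them of 1 gene. The first 120 bases of each frame, from the GENCODE M21 transcripts, show how the changes are spread (capitals mark the 26 bases that differ):
Rps4l: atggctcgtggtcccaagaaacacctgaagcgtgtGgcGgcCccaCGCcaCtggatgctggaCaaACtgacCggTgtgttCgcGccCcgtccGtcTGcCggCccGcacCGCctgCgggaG
Rps4x: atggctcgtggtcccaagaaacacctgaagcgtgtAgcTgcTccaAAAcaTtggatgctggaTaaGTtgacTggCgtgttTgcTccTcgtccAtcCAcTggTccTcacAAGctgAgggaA

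**Figure D4:**
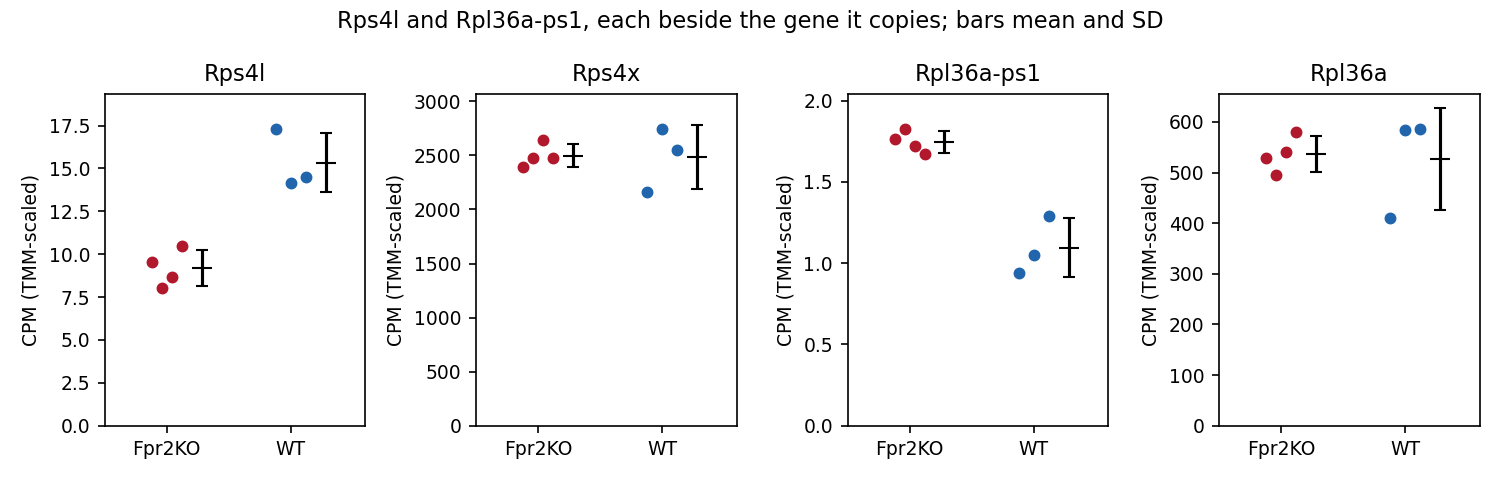
CPM after TMM scaling in each library for Rps4l, Rps4x, Rpl36a-ps1 and Rpl36a, 1 point per library, with the mean and SD of each group as a bar. Rps4l is lower (9.18 against 15.3 CPM) and Rpl36a-ps1 higher in Fpr2KO without overlap, and the genes they copy overlap.

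Rpl36a-ps1, annotated as protein-coding despite its name, was the other member without overlap. It had 30, 34, 29 and 32 reads in Fpr2KO, against 14, 16 and 21 in WT, or 1.77, 1.82, 1.72 and 1.67 CPM in Fpr2KO, against 0.938, 1.05 and 1.29 CPM in WT. All Fpr2KO libraries were higher than all WT libraries, as in 2.73% of all genes tested. The log2 fold change of 0.67 (SE 0.25) had an unadjusted p of 0.0248 and did not pass, with an edgeR adjusted p of 0.942. Of its 75-base stretches 56.8% occur in other transcripts, so its reads are uncertain. Its parent Rpl36a stood at 529.5, 495, 541 and 581 CPM in Fpr2KO, against 410.0, 585 and 586 CPM in WT (0.03, SE 0.13), and it was lowest in WT replicate 1.

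The remaining copies with enough reads share most of their 75-base stretches with other transcripts, and their reads are uncertain too. Rps27rt, a retrocopy of Rps27 on chromosome 9, has a start that copies that of its parent: the 2 RefSeq windows share a run of 38 bases that begins 1 base after the start in Rps27 and at the start in Rps27rt, shown here from 15 bases before to 15 after (capitals as above):
Rps27, chr3:90213634-90213663, minus strand: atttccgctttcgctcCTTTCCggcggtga
Rps27rt, chr9:114982725-114982754, minus strand: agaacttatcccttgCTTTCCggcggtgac
Rps27rt stood at 36.7, 49.4, 36.8 and 26.0 CPM in Fpr2KO, against 38.9, 29.4 and 32.5 CPM in WT (0.15, SE 0.20). Per kilobase this was 2.66, 3.57, 2.38 and 1.59% of Rps27 in Fpr2KO, against 3.37, 1.99 and 2.17% in WT. The ratio was highest in Fpr2KO replicate 2 and WT replicate 1. Rps27 itself stood at 1270.4, 1278, 1430.2 and 1502 CPM in Fpr2KO, against 1064, 1364 and 1384 CPM in WT (0.11, SE 0.11).

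Rpl9-ps6 stood at 26.3, 37.0, 17.0 and 16.7 CPM in Fpr2KO, against 31.4, 13.7 and 18.0 CPM in WT (0.21, SE 0.40). Rpl10-ps3 stood at 8.42, 8.96, 8.53 and 6.10 CPM in Fpr2KO, against 10.5, 6.36 and 7.63 CPM in WT (-0.03, SE 0.21). Rps12-ps3 stood at 4.24, 5.47, 5.87 and 3.70 CPM in Fpr2KO, against 5.36, 6.62 and 4.80 CPM in WT (-0.22, SE 0.21). Rpl9-ps6 and Rpl10-ps3, too, were high in Fpr2KO replicate 2 and WT replicate 1, and the groups overlapped in all 3. Outside the members, 300 further ribosomal protein pseudogenes are annotated in the table, of which 89 were tested. Together the 300 took between 0.0567 and 0.0681% of counts in Fpr2KO and between 0.0522 and 0.0597% in WT. Rpl36-ps4 and the testis-expressed Rpl10l had 0 reads in every library, which allows up to 3 counts in each, or 0.160 to 0.200 CPM before TMM scaling. Rpl9-ps1 had 2, 1, 0 and 1 reads in Fpr2KO, against 0, 0 and 1 in WT.

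The paralogs were expressed well below their parents, and none passed the test. Rpl22l1, the paralog of Rpl22 that is known to act in early blood cell development, stood at 194, 177, 179 and 179 CPM in Fpr2KO, against 155, 185 and 202 CPM in WT (0.02, SE 0.10). Rpl22 stood at 665, 651, 664 and 691 CPM in Fpr2KO, against 549, 696 and 716 CPM in WT (0.03, SE 0.10), so that per kilobase Rpl22l1 reached between 23.4 and 26.3% of Rpl22 in Fpr2KO and between 24.0 and 25.4% in WT. Rpl36al stood at 158, 152, 153 and 141 CPM in Fpr2KO, against 122, 148 and 165 CPM in WT (0.06, SE 0.11), between 22.3 and 28.2% of Rpl36a per kilobase in Fpr2KO and between 23.2 and 27.3% in WT. The ranges of both ratios overlap between groups.

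Rps27l, a p53 target, stood at 100.4, 75.4, 97.2 and 90.8 CPM in Fpr2KO, against 65.3, 84.7 and 95.3 CPM in WT (0.15, SE 0.14). Rpl7l1, a paralog of Rpl7, stood at 106, 110.0, 121 and 115 CPM in Fpr2KO, against 113, 110.4 and 109.9 CPM in WT (0.02, SE 0.08), and Rps27l was lowest in WT replicate 1 while Rpl7l1 was lowest in Fpr2KO replicate 1. Rpl7 itself stood at 1906, 1835, 1922 and 1954 CPM in Fpr2KO, against 1611, 2099 and 2093 CPM in WT (-0.02, SE 0.10). The groups overlapped in all 3 genes. Rpl10 stood at 1572, 1542, 1739 and 1675 CPM in Fpr2KO, against 1369, 1677 and 1696 CPM in WT (0.05, SE 0.10). Rpl3 stood at 1825, 1802, 1923 and 1836 CPM in Fpr2KO, against 1650.4, 2024 and 1851 CPM in WT (0.00, SE 0.09). Rpl39 stood at 649, 595, 641 and 738 CPM in Fpr2KO, against 522, 623 and 675 CPM in WT (0.11, SE 0.11). These 3 parents were all lowest in WT replicate 1 and overlapped between the groups. Rpl3l, the form of striated muscle, had 1, 4, 3 and 3 reads in Fpr2KO, against 2, 1 and 2 in WT. Rpl39l, the form of male germ cells, had 2, 3, 0 and 11 reads in Fpr2KO, against 4, 8 and 5 in WT. Neither had enough reads to be tested. Rps19bp1 stood at 16.4, 14.3, 18.7 and 16.1 CPM in Fpr2KO, against 13.9, 16.5 and 14.4 CPM in WT (0.13, SE 0.13), with overlap.

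Other genes of the translation apparatus gave no call either, in edgeR or DESeq2, in lists chosen with earlier results of these data known. Fau and Rack1, with the nascent chain genes Naca and Btf3, had a median fold change of 0.02 (3 above 0, 1 below). Over the libraries they followed the members, with a median deviation of -0.01, -0.05, 0.08 and 0.01 in Fpr2KO, against -0.22, 0.09 and 0.06 in WT. The 9 elongation genes, several of whose mRNAs also carry the pyrimidine tract, had a median of -0.02 (2 above 0, 7 below) and stood at -0.13 in WT replicate 1. Eef2, the translocase, stood at 2717, 2964, 2898 and 2850.3 CPM in Fpr2KO, against 2744, 3330.1 and 3029 CPM in WT (-0.09, SE 0.09), with overlap. The 31 initiation genes had a median of 0.01 (16 above 0, 15 below).

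The 78 mitochondrial ribosomal protein genes had a median of 0.04 (55 above 0, 23 below), and in WT replicate 1 they were low as well (median deviation -0.19). Among them Mrpl32 stood at 34.3, 31.8, 33.2 and 32.3 CPM in Fpr2KO, against 27.1, 29.4 and 26.3 CPM in WT (0.25, SE 0.09, edgeR adjusted p = 0.884), higher in every Fpr2KO library without passing. Of the 78 genes, 3 were higher without overlap and 2 lower, against 2.73% and 3.18% of all genes tested. The 32 ribosome biogenesis genes had a median of 0.03 (25 above 0, 7 below) and were near their mean in WT replicate 1 (-0.02). Myc, a transcription factor that drives ribosome production, stood at 54.1, 51.2, 57.1 and 52.6 CPM in Fpr2KO, against 66.4, 62.5 and 58.7 CPM in WT, lower in every Fpr2KO library (-0.22, SE 0.08, unadjusted p = 0.0228). It did not pass (edgeR adjusted p = 0.916). Of the 32 biogenesis genes, 1 was lower without overlap and 0 higher.

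All 9 snoRNA host genes, which carry the guide RNAs of rRNA modification in their introns, had a fold change above 0, with a median of 0.17, and none passed. Gas5, a host gene with a pyrimidine tract, stood at 208, 177, 198 and 188 CPM in Fpr2KO, against 161, 200.5 and 177 CPM in WT (0.10, SE 0.10). Snhg8 stood at 27.9, 23.9, 24.1 and 26.7 CPM in Fpr2KO, against 23.0, 20.1 and 20.6 CPM in WT (0.27, SE 0.11, edgeR adjusted p = 0.945), without overlap. Of the 9 host genes, 2 were higher without overlap and 0 lower, against 2.73% and 3.18% of all genes tested. Snhg3 stood at 17.7, 10.4, 14.6 and 12.8 CPM in Fpr2KO, against 8.98, 12.3 and 10.2 CPM in WT (0.40, SE 0.19), with overlap. Of the 16 genes of mTORC1 and of the control of mRNAs with a pyrimidine tract, 10 were above 0 and 6 below, with a median of 0.04. Larp4, an RNA-binding protein that stabilises ribosomal protein mRNAs, stood at 93.5, 102, 95.1 and 93.8 CPM in Fpr2KO, against 84.3, 68.4 and 87.4 CPM in WT (0.27, SE 0.10, edgeR adjusted p = 0.919), higher in every Fpr2KO library without passing. Of these 16 genes, 1 was higher without overlap and 1 lower.

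**Figure D5:**
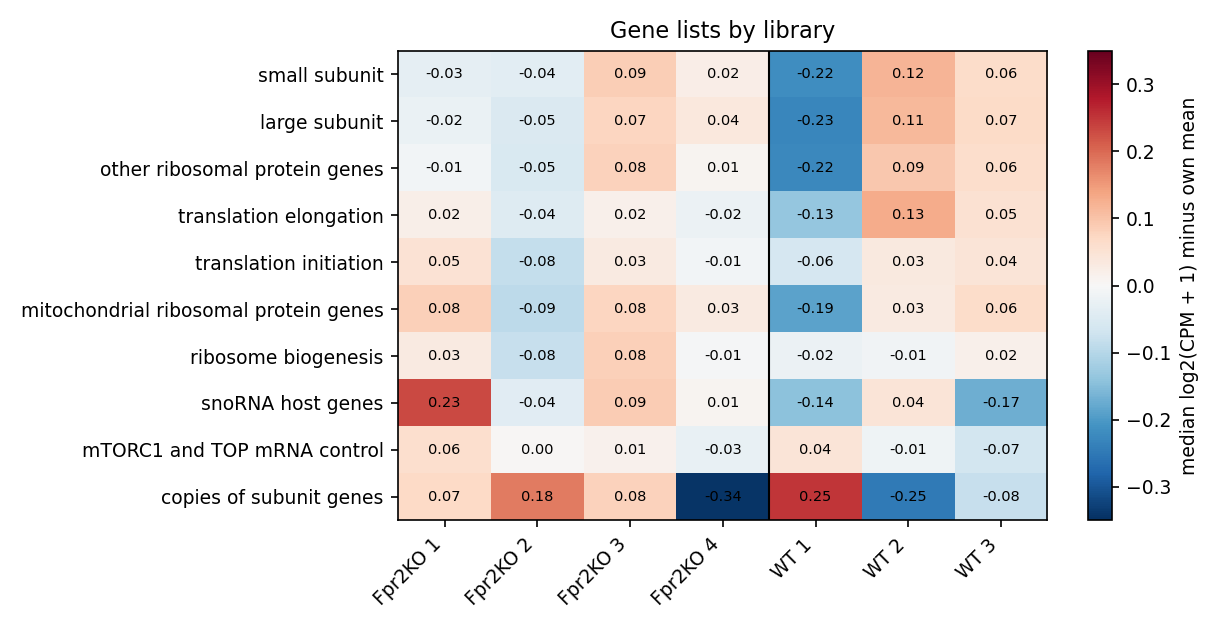
Median over each gene list of log2(CPM + 1) minus each gene's own mean over the 7 libraries, by list (rows) and library (columns, Fpr2KO left of the line). WT replicate 1 is low for both subunits (-0.22 and -0.23) and the mitochondrial ribosomal protein genes (-0.19), and near 0 for ribosome biogenesis (-0.02). It is also low for the row labelled other ribosomal protein genes (-0.22). That row holds Fau and Rack1 together with the nascent chain genes Naca and Btf3, which do not encode ribosomal proteins.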

How the data were processed

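The 7 spleen libraries come as 1 table of raw counts of reads for each Ensembl gene, as deposited. Per the submitters' processing notes the tools were FastQC 0.10.1 and HTSeq 0.10.0, with mm10 or GRCm38 as genome build; no source used here names the aligner, the annotation release or the strand setting. Per the labels, RNA was purified with RNeasy Plus Universal Mini columns (Qiagen) before NEBNext Ultra II RNA library preparation. Of 55414 IDs, 52133 matched GENCODE M21 and carried 99.8% of counts. No pair of libraries of the same group agreed within sampling noise, and pairs across the groups were not compared.

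Fpr2KO was set against WT in edgeR 4.0.16 under R 4.3.3 (quasi-likelihood F test, robust, TMM, filterByExpr, no covariate), with Benjamini-Hochberg adjustment over all 16089 genes tested and calls at 0.05. Alternatives were DESeq2 1.42.0, limma-voom (limma 3.58.1), other scalings and filters, a replicate block and each library left out. The procedure was checked on simulated counts. Deviations used log2(CPM + 1). A floor of 3 counts covers counting error only, because no molecular identifiers mark PCR copies. The members, lists and tests were chosen with earlier results of these data known. Values in every library are given for the 6 members with the smallest p in each direction, the highest and lowest members per kilobase, the paralogs and their parents, the stalk, Rpl5 and Rpl11. From the 2 genes with the smallest p in each related list, those shown were picked after their values were seen, as were Gas5, Tmtc1 and Rpl38. The related lists leave out 1 gene, which is not reported here. Sequences came from RefSeq start windows (GRCm38.p6) and GENCODE M21 transcripts.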

Additional observations from a re-analysis of the deposited data

Results flagged for a closer look

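In 1 of the 50 genes or sums examined, 1 of the 4 Fpr2KO libraries lay far from the other 3 by Dixon's ratio of gap to range, above its 95% critical value for 4 samples; chance gives about 1 in 20. For Rpl22l1 the ratio was 0.859, with Fpr2KO replicate 1 at 194 CPM and the others at 177, 179 and 179 CPM. The gene did not pass the test between the groups.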

How the results depend on the processing

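No member was called by edgeR or limma-voom under any alternative, while DESeq2 called 1, Rps4l. Its log2 fold change was negative in all 19 alternatives. edgeR called 6 genes over the whole table, 21 without a low count filter, 5 to 15 with 1 library left out, and DESeq2 57. Same-numbered samples did not deviate together (correlations 0.078, -0.43 and -0.073), and other pairs across the groups ran from -0.44 to 0.44. Deviations from the mean of a small group are tied to each other, so these values cannot decide whether the numbers pair the samples. With a replicate block edgeR called 2 genes and 0 members, with 23 members below 0 and a median of 0.028. Of the 88 tested members 28 were below 0, 7 to 71 with 1 library left out, 14 without both Fpr2KO replicates 1 and 2 and 78 without both WT replicate 1 and Fpr2KO replicate 4, the last 2 chosen after seeing the data. The members' median log2 fold change lay between -0.068 and 0.091 with 1 library left out. The mean share of counts was 10.8% in Fpr2KO and 10.5% in WT without haemoglobin, immunoglobulin and mitochondrial genes. Of 49 genes followed, 27, none of them called, changed the sign of a small log2 fold change under at least 1 alternative; the cause was not tested. With 1 library left out the log2 fold changes of those that did so there ranged over Rps13 -0.13 to 0.0064, Rps2 -0.19 to 0.058, Rps24 -0.048 to 0.069, Rplp1 -0.079 to 0.094, Rps27 -0.0028 to 0.18, Rpl23a -0.093 to 0.072, Rps14 -0.16 to 0.082, Rpl10-ps3 -0.18 to 0.19, Rplp2 -0.13 to 0.14, Rplp0 -0.046 to 0.11, Rpl5 -0.042 to 0.084, Rpl11 -0.078 to 0.12, Rpl22l1 -0.082 to 0.10, Rpl36al -0.052 to 0.16, Rpl7l1 -0.013 to 0.064, Rpl10 -0.047 to 0.10, Rpl22 -0.079 to 0.10, Rps4x -0.081 to 0.086, Rpl7 -0.14 to 0.041, Rpl3 -0.069 to 0.077, Rpl36a -0.12 to 0.11, Btf3 -0.053 to 0.087, Naca -0.10 to 0.088. Without both WT replicate 1 and Fpr2KO replicate 4 the values were Rps29 -0.023, Rpl37a -0.029, Rpl35a -0.023, Rps24 -0.040, Rplp1 -0.094, Rps27 -0.050, Rpl23a -0.097, Rpl10-ps3 0.30, Rplp2 -0.15, Rplp0 -0.044, Rpl5 -0.045, Rpl11 -0.090, Rpl22l1 -0.075, Rpl36al -0.021, Rpl10 -0.060, Rpl22 -0.096, Rps4x -0.077, Rpl3 -0.066, Rpl36a -0.16, Rpl39 -0.045, Btf3 -0.046, Naca -0.10. Without both Fpr2KO replicates 1 and 2 they were Rps14 0.013, Rpl22l1 -0.0045, Rpl7 0.0068. With the replicate block the value was Rpl10-ps3 0.11. Changes under 2-fold are hard to call here: in simulated counts for this comparison over 15881 genes, edgeR recovered 24% of 50 genes changed 1.5-fold and 72% of 50 changed 2-fold. The changed genes were drawn from the tested genes at large, not from the subunit genes. In the simulation 152 genes were called, 10 of them falsely, against 6 in the data. An adjusted p under 0.05 was therefore easier to reach there, and recovery may be lower in the data.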
